A study of Mus musculus with 12 samples.

Results

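The last step of a 6-day course of experimental colitis, day 6 against day 4 of dextran sulfate sodium (DSS), was followed across the genes expressed in mouse colon. Whole mid-colon tissue was profiled by bulk RNA sequencing, with 3 libraries from day 6 and 3 from day 4. The genes were chosen by level: 15246 of the 25904 gene symbols in the table reached at least 1 CPM (the read count scaled to the library's total) in at least 3 of the 12 libraries of days 0, 2, 4 and 6, and all 15246 were tested. Per the series' design text, SPF mice aged 7 weeks drank 3% DSS or clean water for 6 days. The sources used here give neither strain nor sex. Both days compared are DSS days and no library of days 4 and 6 is labelled as coming from a water drinker, so the progress of colitis and the passing of 2 days cannot be told apart. Whether a day's 3 libraries stem from 3 animals is not said in the labels, and p-values therefore reflect only how far these samples spread, possibly for technical reasons.

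DSS is a sulfated polysaccharide that damages the colonic epithelium when drunk. The barrier opens to the contents of the gut, and neutrophils, monocytes and lymphocytes enter the wall in succession while crypts and their mucus-making goblet cells are lost. Interferons, which set an antiviral and antimicrobial program in many cell types, and glucocorticoids, the stress steroids that restrain inflammation, both act on the inflamed gut.

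The table held 30979977 to 40930613 reads per library in listed genes for these 6 libraries, so 1 read was worth at most 0.0322 CPM. The libraries of day 6 differed more among themselves than those of day 4: the median SD of log2(CPM + 1) was 0.319 at day 6 and 0.15 at day 4, and the SD was larger at day 6 for 12713 genes (83.4%). Correlations between libraries across genes were 0.914 to 0.978 within day 6 and 0.983 to 0.99 within day 4, where genes are not independent replicates. Day 6 replicate 2 stood furthest apart on the first principal component of the 6 libraries (67.5% of the variance, score 80, against 15.2 and -23.3 in the other day 6 libraries and -40.6 to -6.2 at day 4). Day 6 replicate 3 lay within the range of the day 4 libraries on that component. It was the lowest of the 3 day 6 libraries in 210 of the 289 genes called higher and the highest in 67 of the 145 called lower. Day 6 replicate 2 was the highest of the 3 in 226 of the genes called higher and the lowest in 103 of those called lower. The labelled tissue carried its markers, with the intestinal transcription factor Cdx2 at 173, 42.8 and 219.6 CPM at day 6 and 224, 179 and 236 CPM at day 4. Skeletal muscle markers, foreign to the colon wall, summed to 139, 22.4 and 28.1 CPM at day 6 and to 82.6, 113 and 72.1 CPM at day 4, and none of 16 passed in limma, edgeR or DESeq2 or had an unadjusted limma p under 0.05.

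At day 6, 434 genes differed from day 4, 289 higher and 145 lower (limma, Benjamini-Hochberg adjusted p under 0.05), which is 2.85% of the genes tested, 1.9% higher and 0.951% lower. Over 2-fold changes made up 220 of the higher and 85 of the lower genes. Over all genes tested, the log2 fold changes had a median of 0.031. The step before it, day 4 against day 2 in the same fit, called 5180 genes (34%). In all 434 called genes the 3 day 6 libraries lay outside the range of the 3 day 4 libraries, as they did in 3406 of all genes tested (22.3%). Of the 434, 101 kept their call in every fit that left out 1 of the 12 libraries. The number of calls rested on single libraries: 1470 higher and 780 lower without day 6 replicate 3, 73 and 54 without day 4 replicate 1, 160 and 53 without day 4 replicate 2, 73 and 42 without day 4 replicate 3, 132 and 86 without day 6 replicate 1, and 178 and 100 without day 6 replicate 2.

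The fit took 1 residual spread per gene from all 12 libraries. The median SD was 0.319 at day 6, against 0.209, 0.144 and 0.15 at days 0, 2 and 4. Standard errors and p-values of the 12-library fit can therefore understate the spread of genes that varied widely at day 6. Fitted on the 6 libraries of days 4 and 6 alone, limma called no gene (1937 had an unadjusted p under 0.05). On the recovered reads of these libraries edgeR called 5 higher and 12 lower, all of them among the 434. Each of these had the same adjusted p of 0.0471 in edgeR, close under the threshold. The 5 higher were Gzmb, a killer-cell protease, Klhl6, a B cell gene, Trem2, a lipid receptor of macrophages, Ccl5, a T cell-attracting chemokine, and Fcgr4, an activating IgG receptor. The 12 lower were the interferon-induced genes Rsad2, Ifi44, Mx2, Oas1b, Xaf1 and Ddx58, the mucins Muc1 and Muc6, the tuft cell channel Trpm5, the enteroendocrine granule protein Chga, the stress gene Nupr1 and Arhgap40. Of the 12 lower, Muc6, Rsad2, Oas1b, Xaf1, Nupr1 and Ddx58 lost their limma call in at least 1 fit without 1 library. The 434 genes and their values below come from the 12-library fit, and the genes called on the 6 libraries alone are named again where they occur. Each fold change printed is a difference of log2(CPM + 1) values, and in low genes it comes out smaller than the ratio of the CPM. Of the 116 called genes described below, edgeR on all 12 libraries did not call 13 (adjusted p of 0.0507 to 0.168): Apol9a, F10, Flt3, Gsdmc4, Il19, Krt18, Muc4, Ndrg1, Oas1a, Serpina3h, Serpina3i, Sytl2 and Trem1.

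**Figure D1:**
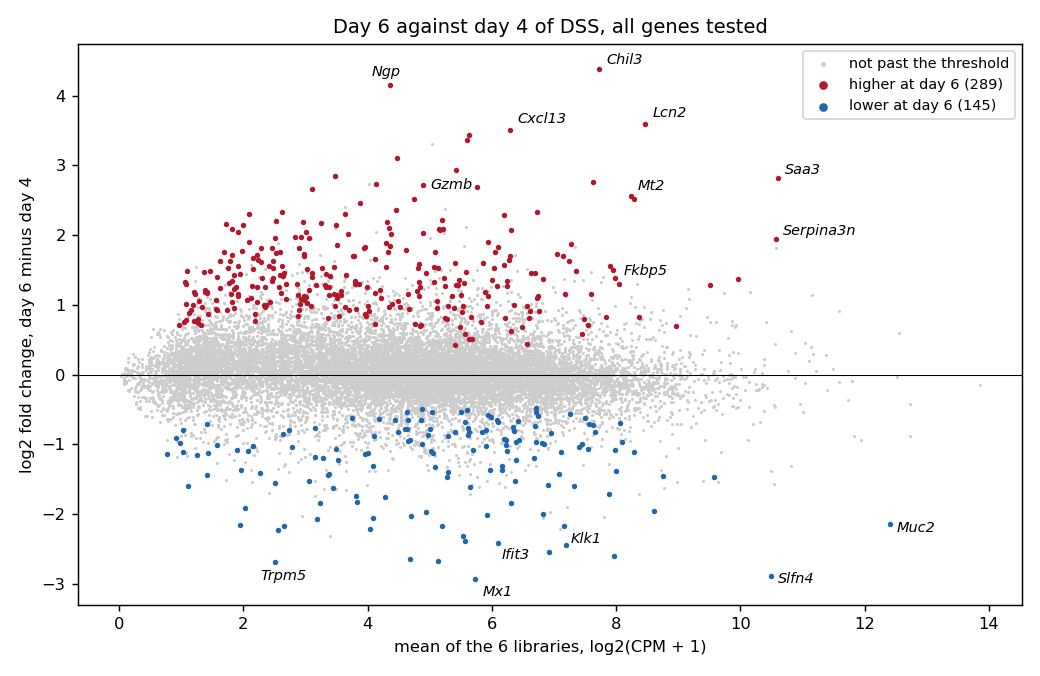
Log2 fold change of each gene tested, day 6 minus day 4, against its mean level over the 6 libraries as log2(CPM + 1). The 289 red points are higher and the 145 blue points lower at an adjusted p under 0.05, and grey points did not pass. The farthest points are Chil3 and Ngp above and Mx1 and Slfn4 below.

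Genes of neutrophils were among the largest rises. Neutrophils are the first white cells to enter injured mucosa and carry ready-made granule proteins. Of 24 neutrophil markers tested, 12 were higher and none lower, against 1.9% of all genes higher, and the list's median log2 fold change was 1.37. Without day 6 replicate 3 the count was 19 higher and 1 lower. It was 8 higher without day 4 replicate 2 or 3 or day 6 replicate 1. It was 9 without day 4 replicate 1 or day 6 replicate 2, and 9 with a filter on a mean of at least 5 CPM. Summed over the list, neutrophil markers stood at 2517, 2306 and 885 CPM at day 6, against 703, 646 and 601 CPM at day 4. In bulk tissue more cells of a type and more RNA per cell cannot be told apart, here and in each list that follows. The count of each such list stands beside 1.9% of all genes called higher and 0.951% called lower.

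Lcn2, lipocalin 2, which starves bacteria of iron and is made by neutrophils and by inflamed epithelium, stood at 821, 951 and 212 CPM at day 6, against 33, 56.1 and 47.4 CPM at day 4. Every day 6 library exceeded every day 4 library (log2 fold change 3.6 ± 0.45, adjusted p = 0.00403, where ± gives the standard error of a log2 fold change), and the call was kept in all 12 fits without 1 library. Mmp8, the neutrophil collagenase, stood at 136, 111 and 26.2 CPM at day 6, against 7.12, 6.05 and 4.71 CPM at day 4 (log2 fold change 3.44 ± 0.47, adjusted p = 0.00466). Il1r2, a decoy receptor that binds interleukin 1 without signalling, stood at 98.5, 94.1 and 35.5 CPM at day 6, against 8.86, 8.95 and 6.81 CPM at day 4 (log2 fold change 2.94 ± 0.32, adjusted p = 0.00238). Both calls were also kept in all 12 such fits, and in both genes day 6 replicate 3 was the lowest library of its day. Ngp, a granule protein of immature neutrophils, stood at 64, 49.9 and 2.17 CPM at day 6, against 0.214, 0.258 and 0.234 CPM at day 4 (log2 fold change 4.15 ± 0.84, adjusted p = 0.0241). Its day 6 libraries ranged widely, and its call was lost without any 1 of day 4 replicates 1, 2 and 3 and day 6 replicates 1 and 2 (adjusted p of 0.0714 to 0.102) and with a pseudocount of 5. The size of its rise depended on the scale, at 7.28 in edgeR, 7.3 in DESeq2 and 2.52 with a pseudocount of 5.

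The formyl peptide receptors that guide neutrophils to bacteria moved the same way: Fpr1 by 2.46 ± 0.38 and Fpr2 by 2.03 ± 0.27 on the log2 scale. Retnlg, a resistin-like protein of neutrophils, rose by 2.52 ± 0.33, Clec4e, a pattern receptor, by 1.59 ± 0.25, and Stfa2l1, a stefin of myeloid cells, by 0.99 ± 0.15, and all 5 kept their calls in the 12 fits. S100a8, a subunit of calprotectin, stood at 188, 141 and 42.3 CPM at day 6, against 28, 17.5 and 17.7 CPM at day 4. For S100a8 the log2 fold change was 2.29 ± 0.43, adjusted p = 0.019, a call lost without any 1 of day 4 replicates 2 and 3 and day 6 replicate 1 (adjusted p of 0.0566 to 0.088). Its partner S100a9 stood at 208, 166 and 58.1 CPM at day 6, against 54.1, 41.7 and 36.6 CPM at day 4 and missed the threshold (log2 fold change 1.51 ± 0.37, adjusted p = 0.057). Trem1, a receptor of neutrophils and monocytes that amplifies inflammatory signals, rose by 1.34 ± 0.30, a call kept only without day 6 replicate 3 and lost without any other 1 library (adjusted p of 0.0588 to 0.159). Csf3r, the receptor for granulocyte colony-stimulating factor, stood at 61.8, 73 and 48.4 CPM at day 6, against 59.1, 63.7 and 51.3 CPM at day 4 and did not pass (log2 fold change 0.06 ± 0.19, adjusted p = 0.904). Cxcr2, the chemokine receptor, had a log2 fold change of 0.7 ± 0.32 and Ly6g, the classical marker, of 0.16 ± 0.58, both with overlapping days and neither past the threshold. On other scales the value of Stfa2l1 was 1.93 in edgeR, 1.94 in DESeq2 and 0.35 with a pseudocount of 5. Fold changes within the list ranged from -0.76 to 4.15 on the log2 scale.

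Chil3 had the largest rise on the log2(CPM + 1) scale of all genes that met the rule for naming. It encodes the chitinase-like protein Ym1, made in mouse by alternatively activated macrophages and by neutrophil precursors. It stood at 731, 399 and 93.8 CPM at day 6, against 12.8, 18.3 and 10.6 CPM at day 4, with all 3 day 6 libraries far above day 4. For Chil3 the log2 fold change was 4.38 ± 0.57, adjusted p = 0.0045, a call kept in all 12 fits without 1 library. In edgeR it was 4.82, below the 7.28 of Ngp. Among 27 monocyte and macrophage markers 7 were higher and none lower, against 1.9% of all genes higher, with a median of 1.03. The scavenger receptor Marco stood at 26.3, 26.7 and 4.31 CPM at day 6, against 1.1, 1.61 and 0.936 CPM at day 4. For Marco the log2 fold change was 2.85 ± 0.49, adjusted p = 0.0129, a call lost without any 1 of day 4 replicates 1 and 3 (adjusted p of 0.059 to 0.0664). Cd163, the receptor for haptoglobin bound to haemoglobin, stood at 48.7, 104 and 29.2 CPM at day 6, against 10.7, 11.6 and 12.9 CPM at day 4. For Cd163 the log2 fold change was 2.09 ± 0.37, adjusted p = 0.0151, a call lost without any 1 of day 4 replicates 1 and 3 (adjusted p of 0.0634 to 0.073). Trem2, one of the set called on the 6 libraries alone, was low and even between replicates, at 7, 8.59 and 6.62 CPM at day 6, against 1.74, 1.84 and 1.53 CPM at day 4 (log2 fold change 1.63 ± 0.19, adjusted p = 0.00238). With a pseudocount of 5 the fold change was 1.76 for Marco and 0.88 for Trem2.

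Spp1, osteopontin, rose by 1.98 ± 0.42, Gpnmb, a glycoprotein of phagocytes, by 1.54 ± 0.36, and Cd14, the lipopolysaccharide co-receptor, by 1.1 ± 0.25. The call of Spp1 was lost without any 1 of day 2 replicate 3 and day 4 replicates 1, 2 and 3 and day 6 replicate 1 (adjusted p of 0.0501 to 0.131) and was also lost with a pseudocount of 5, at a fold change of 1.16. That of Gpnmb was kept only without 1 of day 4 replicate 2 and day 6 replicate 3 and lost without any other 1 library (adjusted p of 0.0622 to 0.202). That of Cd14 was kept only without 1 of day 0 replicate 1 and day 6 replicate 3 and lost without any other 1 library (adjusted p of 0.0534 to 0.139). Ccr2 and Ly6c2, which mark monocytes newly arrived from blood, did not pass. Ccr2 stood at 73.6, 94.8 and 58.3 CPM at day 6, against 53.4, 90.8 and 69.6 CPM at day 4 (log2 fold change 0.09 ± 0.25, adjusted p = 0.887). Ly6c2, lower in every day 6 library, stood at 59.98, 57.1 and 43.9 CPM at day 6, against 65.4, 126 and 85.1 CPM at day 4 (log2 fold change -0.73 ± 0.33, adjusted p = 0.264). The count of 7 became 20 without day 6 replicate 3, 2 without day 4 replicate 1 or 3, 4 without day 2 replicate 3 or day 6 replicate 1, and 11 with median-of-ratios scaling. Fcgr4, chosen after its values were seen, stood at 133, 136 and 90.2 CPM at day 6, against 30.2, 42.3 and 34.6 CPM at day 4 (log2 fold change 1.71 ± 0.22, adjusted p = 0.00457).

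Markers of T cells and natural killer cells rose in the largest share of any list. Of 22 tested, 16 were higher and none lower, with a median of 1.32, and in 21 the day 6 libraries all lay above the day 4 libraries, against 9.88% of all genes. Their sum was 140, 264 and 212 CPM at day 6, against 57.6, 63.5 and 61.1 CPM at day 4. Here day 6 replicate 3 was not the lowest library of its day, unlike in the neutrophil list. Gzmb, granzyme B, the serine protease of cytotoxic granules, stood at 38, 67.7 and 47.3 CPM at day 6, against 6.4, 6.57 and 7.05 CPM at day 4 (log2 fold change 2.72 ± 0.25, adjusted p = 0.00157). Its groups were well apart, and its call was kept in all 12 fits without 1 library. Gzma, granzyme A, stood at 12.2, 22.2 and 18.1 CPM at day 6, against 2.65, 2.93 and 3.77 CPM at day 4 (log2 fold change 2.14 ± 0.31, adjusted p = 0.00527). Prf1, the pore-forming perforin, stood at 2.73, 3.03 and 4.24 CPM at day 6, against 0.749, 1.03 and 0.65 CPM at day 4 (log2 fold change 1.25 ± 0.17, adjusted p = 0.00459). Both calls were kept in all 12 fits without 1 library, and the fold change of Prf1 was 2.03 in edgeR, 2.03 in DESeq2 and 0.52 with a pseudocount of 5.

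Receptor genes were among the 16. Cd8a, the co-receptor of cytotoxic T cells, stood at 6.36, 9.37 and 9.13 CPM at day 6, against 1.12, 1.93 and 2.21 CPM at day 4 (log2 fold change 1.76 ± 0.32, adjusted p = 0.0156), and its partner Cd8b1 changed by 1.47 ± 0.20. The call of Cd8a was lost without any 1 of day 4 replicates 1 and 3 (adjusted p of 0.0501 to 0.0802). Cd3d, a subunit of the T cell receptor complex, stood at 2.71, 5.56 and 5.03 CPM at day 6, against 0.696, 0.258 and 0.936 CPM at day 4 (log2 fold change 1.72 ± 0.24, adjusted p = 0.00505). Cd4, the co-receptor of helper T cells, which macrophages of some species also carry, stood at 8.97, 21.6 and 9.42 CPM at day 6, against 10.6, 13.9 and 9.49 CPM at day 4 and did not pass (log2 fold change 0.13 ± 0.36, adjusted p = 0.89). Ctla4, an inhibitory receptor of activated and regulatory T cells, stood at 6.68, 12.6 and 5.21 CPM at day 6, against 1.31, 1.74 and 0.754 CPM at day 4. For Ctla4 the log2 fold change was 1.96 ± 0.29, adjusted p = 0.00637, a call kept in all 12 fits without 1 library. Icos, an activation receptor, rose by 1.62 ± 0.31, a call lost without any 1 of day 4 replicates 1 and 3 (adjusted p of 0.094 to 0.102). On other scales the fold change was 3.06 in edgeR, 3.07 in DESeq2 and 0.54 with a pseudocount of 5 for Cd8b1 and 2.77 in edgeR, 2.77 in DESeq2 and 0.73 with a pseudocount of 5 for Cd3d. With a pseudocount of 5 it was 0.97 for Cd8a, 1.03 for Ctla4 and 0.82 for Icos. Foxp3, the transcription factor of regulatory T cells, stood at 1.63, 4.8 and 1.72 CPM at day 6, against 0.241, 0.708 and 0.962 CPM at day 4, with no overlap, and missed the threshold (log2 fold change 1.11 ± 0.29, adjusted p = 0.0738). The list's count was 3 with a filter on a mean of at least 5 CPM, under which fewer of these genes were tested. It was 8 without day 4 replicate 1, 10 without day 4 replicate 2 and 7 without day 4 replicate 3.

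Ccl5, a chemokine made by T and natural killer cells that draws in more of them, stood at 28.8, 35.5 and 26 CPM at day 6, against 7.98, 9.79 and 6.87 CPM at day 4 (log2 fold change 1.76 ± 0.19, adjusted p = 0.00238), with well separated days. Ifng, interferon gamma, the cytokine these cells release, was not called and varied widely at day 6, at 3.02, 1.04 and 13.6 CPM at day 6, against 4.15, 3.22 and 3.85 CPM at day 4 (log2 fold change 0.06 ± 0.51, adjusted p = 0.965). B cell markers were higher in 5 of 8 tested and lower in none, against 1.9% of all genes higher, with a median of 0.97. The list summed to 22.2, 32.4 and 26.1 CPM at day 6, against 13.5, 17.6 and 18.1 CPM at day 4. At day 0 the sums had been 20.9, 30.3 and 27.6 CPM, overlapping those of day 6. A further member, at -0.74, was lower in every day 6 library without passing, and 1 member was called lower in DESeq2 and with quantile normalization. Ighd, the constant region of IgD, stood at 1.19, 2.53 and 2.3 CPM at day 6, against 0.321, 0 and 0.312 CPM at day 4 (log2 fold change 1.29 ± 0.21, adjusted p = 0.00894). Cd79b, a signalling subunit of the B cell receptor, stood at 2.34, 3.21 and 2.41 CPM at day 6, against 0.428, 0.451 and 0.832 CPM at day 4 (log2 fold change 1.22 ± 0.21, adjusted p = 0.0122). Both are low genes whose fold change depended on the scale, at 3.15 in edgeR, 3.18 in DESeq2 and 0.42 with a pseudocount of 5 for Ighd and 2.18 in edgeR, 2.18 in DESeq2 and 0.46 with a pseudocount of 5 for Cd79b. The call of Cd79b was lost without day 4 replicate 1 (adjusted p = 0.0651). The list's count was 1 without day 4 replicate 1, 2 without day 4 replicate 2 or day 6 replicate 1, 3 without day 4 replicate 3, and 0 with the mean filter of 5 CPM. Klhl6, chosen after its values were seen, stood at 16.2, 20.7 and 14 CPM at day 6, against 3.72, 4.57 and 3.43 CPM at day 4 (log2 fold change 1.86 ± 0.18, adjusted p = 0.00157). None of 13 plasma cell markers passed in limma (3 with an unadjusted p under 0.05) or edgeR, with 3 higher in DESeq2. Igha, the constant region of IgA, stood at 412, 2068 and 477 CPM at day 6, against 577, 398 and 312 CPM at day 4 (log2 fold change 0.83 ± 0.52, adjusted p = 0.429).

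**Figure D2:**
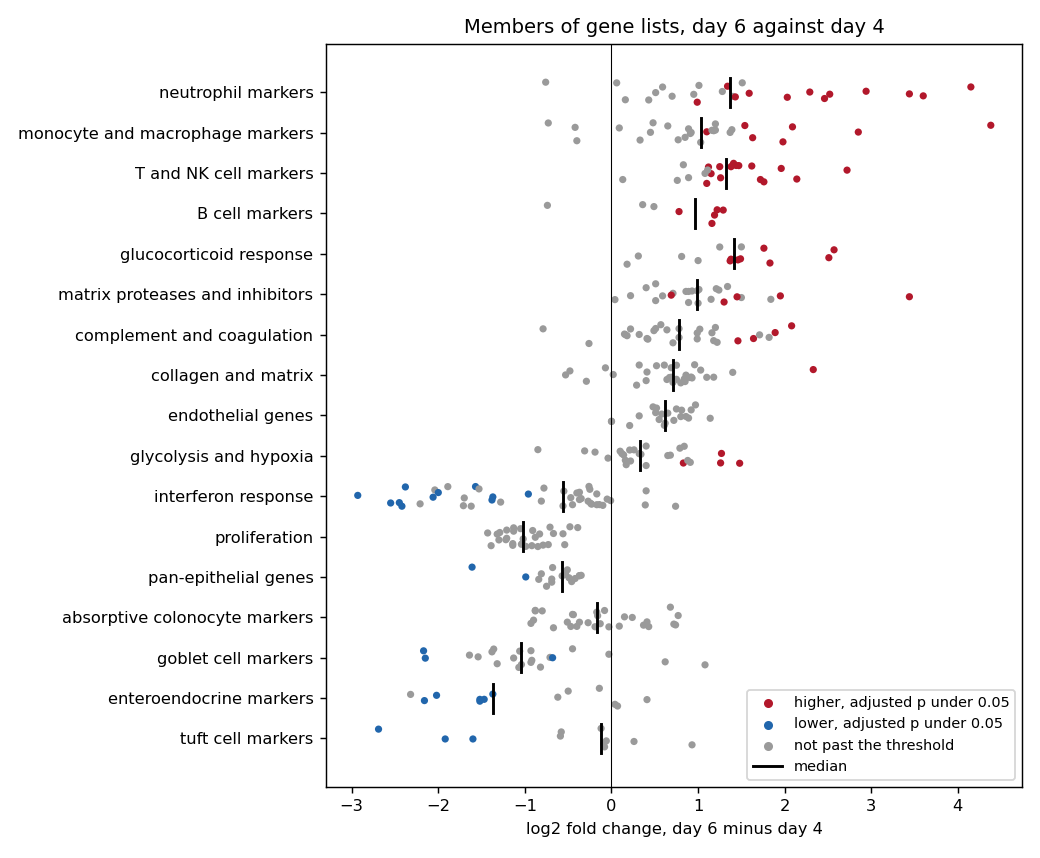
Log2 fold change, day 6 minus day 4, of every tested member of 17 gene lists. Red and blue points passed the threshold as higher and lower, grey points did not, and black bars are list medians. T and NK cell markers have 16 of 22 members past the threshold, while all 30 proliferation genes lie below 0 and none passed.

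Chemokines and cytokines moved unevenly. Cxcl13, the chemokine that gathers B cells into follicles, stood at 196, 195 and 44.2 CPM at day 6, against 9.61, 10.2 and 9 CPM at day 4. For Cxcl13 the log2 fold change was 3.51 ± 0.47, adjusted p = 0.00462, a call kept in all 12 fits without 1 library. Cxcl12, the stromal ligand of CXCR4, stood at 396, 535 and 205 CPM at day 6, against 105, 198 and 136 CPM at day 4. For Cxcl12 the log2 fold change was 1.31 ± 0.30, adjusted p = 0.0443, a call kept only without 1 of day 4 replicate 2 and day 6 replicate 3 and lost without any other 1 library (adjusted p of 0.0644 to 0.203). Ccl7, a monocyte attractant, fell, at 34.8, 20.5 and 25.8 CPM at day 6, against 43.3, 56.7 and 49 CPM at day 4. For Ccl7 the log2 fold change was -0.88 ± 0.19, adjusted p = 0.034, a call kept only without 1 of day 0 replicates 1 and 2 and day 6 replicates 1 and 3 and lost without any other 1 library (adjusted p of 0.054 to 0.137), and it was -0.54 with library weights. The related Ccl2 did not pass, at 136, 76.5 and 71.5 CPM at day 6, against 99.4, 94.7 and 99.5 CPM at day 4 (log2 fold change -0.11 ± 0.21, adjusted p = 0.823). Of 20 chemokines outside the neutrophil-attracting group, 3 rose and Ccl7 fell, with a median of -0.11. The replicate block left 3 and none, and the fit without day 6 replicate 3 gave 4 and 4.

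Among 5 tested ligands that attract neutrophils, all had positive fold changes, with a median of 0.9, and 1 passed. Cxcl3 stood at 15.9, 13.6 and 4.53 CPM at day 6, against 3.4, 1.48 and 2.39 CPM at day 4. For Cxcl3 the log2 fold change was 1.74 ± 0.36, adjusted p = 0.0254, a call lost without any 1 of day 4 replicates 1, 2 and 3 and day 6 replicates 1 and 2 (adjusted p of 0.0578 to 0.0986), and it was 1.07 with a pseudocount of 5. Cxcl2 stood at 85.3, 49.3 and 17.7 CPM at day 6, against 23.1, 11.2 and 11.6 CPM at day 4 (log2 fold change 1.48 ± 0.45, adjusted p = 0.107), and Cxcl5 had a log2 fold change of 0.77 ± 0.25, adjusted p = 0.133. All 5 passed without day 6 replicate 3, and none passed without any 1 of the other 5 libraries of these days. Csf3, granulocyte colony-stimulating factor, which drives neutrophil output, stood at 51.3, 52.8 and 7.81 CPM at day 6, against 5.84, 3.51 and 4.92 CPM at day 4. For Csf3 the log2 fold change was 2.36 ± 0.54, adjusted p = 0.0414, a call kept only without day 6 replicate 3 and lost without any other 1 library (adjusted p of 0.0635 to 0.139). It was 1 of 3 called among 16 cytokines, with Tnfsf11, the osteoclast factor RANKL, at 2.04 ± 0.35 and Il19, a relative of interleukin 10, at 1.22 ± 0.25. With a pseudocount of 5 these were 1.24 and 0.54, and with library weights Il19 was at 0.78. DESeq2 did not call Il19. The limma call of Tnfsf11 was lost without any 1 of day 4 replicates 1 and 3 and day 6 replicate 1 (adjusted p of 0.0527 to 0.0646). That of Il19 was lost without any 1 of day 4 replicates 1, 2 and 3 and day 6 replicate 2 (adjusted p of 0.0578 to 0.0713). Without day 6 replicate 3 the 3 called cytokines became 7 higher and 1 lower, without day 4 replicate 3 they became 0 and 1, and without any 1 of the other 4 libraries 1 rose. Il1b stood at 184, 111 and 81.6 CPM at day 6, against 89.9, 61.7 and 53.6 CPM at day 4 (log2 fold change 0.82 ± 0.28, adjusted p = 0.151), Tnf at 13.8, 6.63 and 15.4 CPM at day 6, against 31, 12 and 12.5 CPM at day 4 (log2 fold change -0.54 ± 0.41, adjusted p = 0.535) and Il6 had a log2 fold change of 0.11 ± 0.30, none past the threshold. Il22, which stimulates epithelial repair, stood at 1.61, 0.522 and 1.06 CPM at day 6, against 7.17, 3.38 and 1.9 CPM at day 4, lower in every day 6 library, and missed the threshold (log2 fold change -1.22 ± 0.31, adjusted p = 0.0665).

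Saa3 and Hp, of the list of antimicrobial and mucosal defence genes, were among the largest rises. Both encode acute phase proteins, a class that the liver releases into blood in inflammation. Saa3, a serum amyloid A protein, stood at 3461, 4148 and 758 CPM at day 6, against 209.6, 441 and 330.1 CPM at day 4 (log2 fold change 2.82 ± 0.64, adjusted p = 0.0399). It was high in day 6 replicates 1 and 2, and its call was kept only without 1 of day 0 replicates 1 and 3 and day 6 replicate 3 and lost without any other 1 library (adjusted p of 0.0588 to 0.175). Hp, haptoglobin, which captures free haemoglobin, stood at 426, 472 and 144 CPM at day 6, against 33.5, 56.7 and 46.6 CPM at day 4. For Hp the log2 fold change was 2.76 ± 0.43, adjusted p = 0.0078, a call kept in all 12 fits without 1 library. Hmox1, which breaks down haem, stood at 98.7, 85.8 and 29.9 CPM at day 6, against 19.9, 25.6 and 21.3 CPM at day 4. For Hmox1 the log2 fold change was 1.48 ± 0.35, adjusted p = 0.0473, a call kept only without day 6 replicate 3 and lost without any other 1 library (adjusted p of 0.0673 to 0.185). Of 28 antimicrobial and mucosal defence genes 4 rose (Lcn2, Saa3, Hp and S100a8) and 1 fell. The gene that fell was Wfdc2, a secreted epithelial protease inhibitor, at 5.02, 3.45 and 8.76 CPM at day 6, against 19.4, 21.6 and 19.8 CPM at day 4. For Wfdc2 the log2 fold change was -1.73 ± 0.31, adjusted p = 0.0156, a call lost without any 1 of day 4 replicates 1, 2 and 3 and day 6 replicate 1 (adjusted p of 0.0548 to 0.0698). The counts were 9 and 3 without day 6 replicate 3 and 2 and 0 without day 4 replicate 2 or 3 or day 6 replicate 1.

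Several serpins of the mouse a3 cluster, inhibitors of serine proteases of which the human gene is an acute phase protein, rose. Serpina3m stood at 91.2, 139.5 and 35.1 CPM at day 6, against 6.48, 8.05 and 5.38 CPM at day 4. For Serpina3m the log2 fold change was 3.36 ± 0.38, adjusted p = 0.00238, a call kept in all 12 fits without 1 library. Serpina3n stood at 2467, 4123 and 905 CPM at day 6, against 459.6, 694 and 496 CPM at day 4. For Serpina3n the log2 fold change was 1.95 ± 0.44, adjusted p = 0.0378, a call kept only without day 6 replicate 3 and lost without any other 1 library (adjusted p of 0.0533 to 0.156). Serpina3g stood at 180.1, 153 and 119.9 CPM at day 6, against 50.5, 69.8 and 44 CPM at day 4. For Serpina3g the log2 fold change was 1.45 ± 0.22, adjusted p = 0.00739, a call kept in all 12 fits without 1 library. Serpina3c, Serpina3f, Serpina3h, Serpina3i and Serpina3k, chosen after their values were seen, were called higher as well, by 2.14 ± 0.44, 1.58 ± 0.28, 1.08 ± 0.21, 1.28 ± 0.28 and 2.05 ± 0.42. The scale moved 3 of these: Serpina3c was at 4.39 in edgeR, 4.41 in DESeq2 and 0.94 with a pseudocount of 5, Serpina3h at 1.78 in edgeR, 1.78 in DESeq2 and 0.44 with a pseudocount of 5 and Serpina3k at 4.34 in edgeR, 4.36 in DESeq2 and 0.88 with a pseudocount of 5. The calls of Serpina3c and Serpina3k were lost with a pseudocount of 5. These genes are neighbours on chromosome 12, with Serpina3m at chr12:104338486-104394257 and Serpina3n at chr12:104406729-104414329 (GRCm38, GENCODE M21). They are related genes of 1 cluster, and how alike their sequences are was not measured. The counting may have split or shared reads between them, so the members are uncertain one by one.

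Matrix proteases and their inhibitors summed to 6245, 9614 and 3184 CPM at day 6, against 2387, 3240.2 and 2467 CPM at day 4, with day 6 replicate 3 below the highest day 4 library. All 25 tested members of the list of matrix proteases and inhibitors had positive fold changes, with a median of 0.99, and 5 passed: Mmp8, Serpina3n, Serpina3g, Adam12 and Ctss. Adam12, a membrane metalloprotease of activated mesenchyme, stood at 21.3, 23.9 and 11.7 CPM at day 6, against 5.19, 9.27 and 6.5 CPM at day 4. For Adam12 the log2 fold change was 1.3 ± 0.26, adjusted p = 0.0241, a call lost without any 1 of day 4 replicates 1 and 3 and day 6 replicates 1 and 2 (adjusted p of 0.0651 to 0.121). Ctss, cathepsin S, a lysosomal protease of antigen-presenting cells, rose by 0.69 ± 0.14, a call lost without any 1 of day 2 replicate 3 and day 4 replicates 1, 2 and 3 and day 6 replicates 1 and 2 (adjusted p of 0.0511 to 0.132). Stromelysin Mmp3 stood at 512, 795 and 224 CPM at day 6, against 210.3, 287 and 235 CPM at day 4 (log2 fold change 0.89 ± 0.35, adjusted p = 0.203) and collagenase Mmp13 had one of 0.89 ± 0.26, adjusted p = 0.0922, both with overlapping days. The 5 became 20 without day 6 replicate 3, 2 without day 4 replicate 1 or 3 or day 6 replicate 1, and 3 when day 2 replicate 3, day 4 replicate 2 or else day 6 replicate 2 was left out.

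Lox, lysyl oxidase, which crosslinks collagen, was the single called member of 31 collagen and matrix genes, at 182, 277 and 76.4 CPM at day 6, against 23.1, 42.5 and 28.7 CPM at day 4. For Lox the log2 fold change was 2.33 ± 0.43, adjusted p = 0.0181, a call lost without any 1 of day 4 replicates 1 and 3 and day 6 replicate 1 (adjusted p of 0.0622 to 0.0895). Col1a1, the main chain of type I collagen, stood at 1114, 1699 and 853 CPM at day 6, against 537, 966 and 709 CPM at day 4 and did not pass (log2 fold change 0.71 ± 0.33, adjusted p = 0.271). Without day 6 replicate 3, 18 of the list were higher and 1 lower, and none was called without day 4 replicate 1 or 3 or day 6 replicate 1. Thy1 was the 1 called fibroblast gene of 26 (log2 fold change 1.39 ± 0.25, adjusted p = 0.0163), and Hhip, a hedgehog-binding protein, the 1 called smooth muscle gene of 18 (log2 fold change 1.26 ± 0.24, adjusted p = 0.0204). The call of Thy1 was lost without any 1 of day 4 replicates 1 and 3 (adjusted p of 0.0771 to 0.0822). That of Hhip was lost without any 1 of day 4 replicates 1 and 3 and day 6 replicate 1 (adjusted p of 0.0655 to 0.0984), and was also lost with a pseudocount of 5, at 0.72. The fibroblast list summed to 6011, 10957 and 3515 CPM at day 6, against 2691, 4397 and 3237 CPM at day 4, and without day 6 replicate 3 it had 7 members higher. Other lists of the gut wall ran in the same order of day 6 libraries. Genes of interstitial cells of Cajal and pericytes summed to 1112, 2503 and 616 CPM at day 6, against 629, 1057 and 805 CPM at day 4. Enteric neuron and glia genes summed to 513, 1011 and 275 CPM at day 6, against 258, 496 and 389.8 CPM at day 4. Smooth muscle genes summed to 7869, 13671 and 4892 CPM at day 6, against 6447, 10326 and 9079 CPM at day 4. None of the 11 Cajal and pericyte genes passed in limma (2 with an unadjusted p under 0.05) or edgeR (2 higher in DESeq2, 3 without day 6 replicate 3), and their median was 0.35. None of the 19 neuron and glia genes passed in limma (2 with an unadjusted p under 0.05) or edgeR (1 higher in DESeq2, 2 without day 6 replicate 3), with a median of 0.37. The part of these cell types in the matrix gene levels was not tested. Of 21 endothelial genes none passed in limma (10 with an unadjusted p under 0.05, 1 higher in edgeR and 7 in DESeq2), and 16 were higher without day 6 replicate 3.

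Of 29 complement and coagulation genes 4 rose and none fell, against 1.9% of all genes higher, with a median of 0.78. F13a1, the clot-stabilising subunit of factor XIII, stood at 164, 189 and 41.9 CPM at day 6, against 27, 23.9 and 24.6 CPM at day 4. For F13a1 the log2 fold change was 2.08 ± 0.43, adjusted p = 0.0257, a call lost without any 1 of day 4 replicates 1, 2 and 3 and day 6 replicates 1 and 2 (adjusted p of 0.0666 to 0.104). F10, coagulation factor X, stood at 32.2, 38.4 and 20.1 CPM at day 6, against 7.79, 5.8 and 8.04 CPM at day 4 (log2 fold change 1.89 ± 0.27, adjusted p = 0.00559). C5ar1, the receptor for C5a, rose by 1.46 ± 0.28, a call lost without any 1 of day 4 replicates 1, 2 and 3 and day 6 replicate 1 (adjusted p of 0.063 to 0.096). C3, the central complement component, stood at 2306, 3797 and 1146 CPM at day 6, against 447, 838 and 609.6 CPM at day 4, with no overlap, and missed the threshold (log2 fold change 1.82 ± 0.53, adjusted p = 0.094). Without day 6 replicate 3, 18 were higher, and without any 1 of day 4 replicates 1, 2 and 3 or day 6 replicate 1, 1 was. Median-of-ratios scaling and quantile normalization each gave 7.

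**Figure D3:**
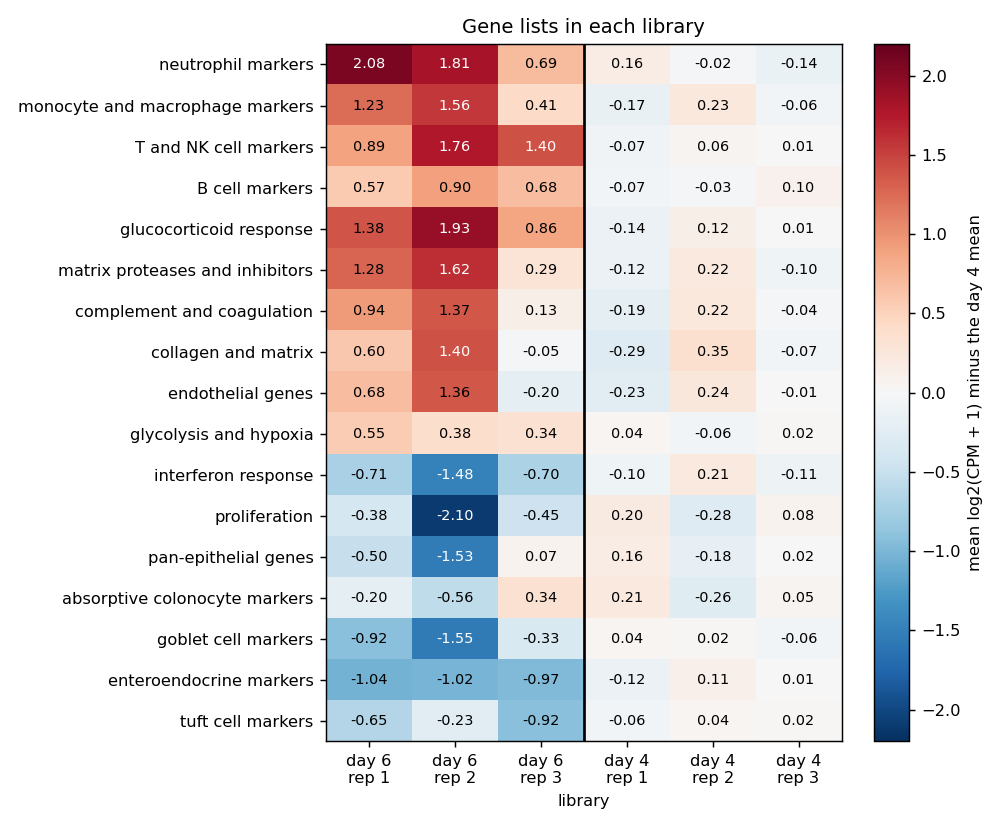
Mean log2(CPM + 1) of each gene list in each library, minus its mean over the 3 day 4 libraries. Day 6 replicate 3 has the lowest neutrophil score of its day (0.69 against 2.08 and 1.81) but a T and NK cell score of 1.401, and day 6 replicate 2 has the lowest proliferation score (-2.10).

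Most genes of the glucocorticoid response rose. The glucocorticoid receptor raises a known set of feedback genes in most tissues. Of 14 tested, 8 were higher and none lower, against 1.9% of all genes higher. All 14 fold changes were positive, and the median was 1.42. Fkbp5, a co-chaperone that dampens the receptor, stood at 324, 389.7 and 375 CPM at day 6, against 142, 129 and 144 CPM at day 4 (log2 fold change 1.38 ± 0.14, adjusted p = 0.00238). The 3 day 6 libraries were close together and well above day 4, and the call was kept in all 12 fits without 1 library. Tsc22d3, which encodes the anti-inflammatory mediator GILZ, stood at 87, 151 and 69.3 CPM at day 6, against 21.6, 32.7 and 31 CPM at day 4 (log2 fold change 1.76 ± 0.27, adjusted p = 0.0078). Sgk1, a kinase of ion transport, stood at 94.1, 146 and 79.1 CPM at day 6, against 25.9, 29.98 and 29.1 CPM at day 4 (log2 fold change 1.83 ± 0.25, adjusted p = 0.0051). Both calls were kept in all 12 fits without 1 library.

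Levels at the earlier days differed between these genes. Sgk1 averaged 53.8 CPM at day 0 and 160.3 CPM at day 2, so that day 4 was the lowest of the 4 days, and Tsc22d3 averaged 51.4 and 74.5 CPM at those days. Per1, a clock gene with a glucocorticoid response, rose by 1.46 ± 0.29, a call lost without any 1 of day 4 replicates 1 and 3 and day 6 replicate 1 (adjusted p of 0.0566 to 0.112). Dusp1, a phosphatase of MAP kinases, rose by 1.37 ± 0.24, a call lost without any 1 of day 4 replicates 1 and 3 and day 6 replicate 1 (adjusted p of 0.0527 to 0.0766), and Errfi1, a brake on the EGF receptor, by 1.49 ± 0.35, a call kept only without day 6 replicate 3 and lost without any other 1 library (adjusted p of 0.0662 to 0.186). Zbtb16 stood at 46.7, 110.1 and 24.5 CPM at day 6, against 12.1, 21.7 and 18.9 CPM at day 4 and did not pass (log2 fold change 1.5 ± 0.43, adjusted p = 0.0905). The count of 8 was 5 when day 4 replicate 1 or 3, or else day 6 replicate 1, was left out. The sources used here do not state the hour of harvest. Of 20 clock genes Per1 alone passed in limma, with a list median of 0.18. Their fold changes ran both ways, from -1.38 to 1.46, and 8 had an unadjusted limma p under 0.05, against 2861 of all 15246 genes. In 4 members every day 6 library lay above every day 4 library and in 3 below, against 9.88% and 12.5% of all genes.

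Mt1 and Mt2, metallothioneins that bind zinc and respond to metals as well as to glucocorticoids, were members of that list. Mt2 stood at 575, 808 and 194 CPM at day 6, against 68.9, 72.6 and 83.6 CPM at day 4 (log2 fold change 2.57 ± 0.39, adjusted p = 0.00707). Mt1 stood at 640.3, 782 and 201 CPM at day 6, against 78.3, 76.9 and 87.6 CPM at day 4 (log2 fold change 2.51 ± 0.39, adjusted p = 0.00739). They are neighbours on chromosome 8, Mt2 at chr8:94172664-94173568 and Mt1 at chr8:94179082-94180327. How alike their sequences are, and whether the counting shared reads between them, was not measured. Mt3, chosen after its values were seen, stood at 18.2, 37.9 and 5.21 CPM at day 6, against 1.61, 2.64 and 3.04 CPM at day 4. For Mt3 the log2 fold change was 2.31 ± 0.52, adjusted p = 0.0395, a call kept only without day 6 replicate 3 and lost without any other 1 library (adjusted p of 0.0508 to 0.169). Ddit4, a stress gene that restrains mTOR and was also chosen after its values were seen, stood at 236, 359.9 and 139 CPM at day 6, against 62.2, 63.1 and 58.7 CPM at day 4. For Ddit4 the log2 fold change was 1.87 ± 0.30, adjusted p = 0.00833, a call kept in all 12 fits without 1 library. Of 26 glycolysis and hypoxia genes 4 rose and none fell, with a median of 0.33. Slc16a3, the lactate exporter MCT4, stood at 118, 87.6 and 81 CPM at day 6, against 41.7, 33.4 and 41.4 CPM at day 4 (log2 fold change 1.27 ± 0.16, adjusted p = 0.0045). Bnip3, a mitophagy receptor induced by low oxygen, stood at 53.2, 64.8 and 40.6 CPM at day 6, against 17.7, 23.9 and 21.9 CPM at day 4 (log2 fold change 1.26 ± 0.20, adjusted p = 0.00817), and both calls were kept in all 12 fits without 1 library. Hmox1 and Ndrg1 were the others. Ndrg1 stood at 276, 303 and 300.3 CPM at day 6, against 150.1, 160.1 and 183 CPM at day 4. For Ndrg1 the log2 fold change was 0.83 ± 0.20, adjusted p = 0.0462, a call kept only without 1 of day 0 replicates 1 and 3 and day 6 replicate 3 and lost without any other 1 library (adjusted p of 0.0504 to 0.202). The count of 4 was 2 in 8 of the 12 fits without 1 library and 8 without day 6 replicate 3.

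Antiviral genes of the interferon response were among the largest falls. Type I and type III interferons act through a complex that holds STAT2 and IRF9 and binds a DNA element of paired GAAA repeats, while interferon gamma acts mainly through another element. Of 43 interferon response genes 11 were lower and none higher, against 0.951% of all genes lower, and the median was -0.56. The list summed to 10478, 6181 and 10507 CPM at day 6, against 12555, 16415 and 12468 CPM at day 4, with no overlap. Mx1, a GTPase that blocks influenza viruses, stood at 12.4, 7.07 and 15.8 CPM at day 6, against 101, 87.7 and 88.8 CPM at day 4 (log2 fold change -2.93 ± 0.33, adjusted p = 0.00238). Its call was kept in all 12 fits without 1 library. Its mean had been 15.7 CPM at day 0 and 9.97 CPM at day 2, so the day 6 libraries lay near those days again. Ifi44 stood at 29.5, 15.8 and 18.5 CPM at day 6, against 107, 126 and 111 CPM at day 4 (log2 fold change -2.42 ± 0.31, adjusted p = 0.00441). Mx2 stood at 6.92, 4.41 and 5.61 CPM at day 6, against 25.1, 29.1 and 25.1 CPM at day 4 (log2 fold change -2.06 ± 0.31, adjusted p = 0.00643). Unlike Mx1, Ifi44 averaged 2.37 CPM at day 0 and 1.44 CPM at day 2, well under its day 6 level.

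Ifit3, which holds viral RNA sensors in an antiviral complex, stood at 37.7, 22.1 and 43.5 CPM at day 6, against 147, 281 and 189.7 CPM at day 4 (log2 fold change -2.55 ± 0.36, adjusted p = 0.00521). Its copy Ifit3b stood at 6.41, 4.12 and 7.36 CPM at day 6, against 30.01, 61.2 and 39.4 CPM at day 4 (log2 fold change -2.65 ± 0.34, adjusted p = 0.00457). Reads may be split between these 2, and both calls were kept in all 12 fits without 1 library. Isg15, a ubiquitin-like modifier, stood at 59.4, 26.4 and 53.8 CPM at day 6, against 261, 246 and 226 CPM at day 4. For Isg15 the log2 fold change was -2.45 ± 0.51, adjusted p = 0.0279, a call lost without any 1 of day 4 replicates 1, 2 and 3 and day 6 replicates 1 and 2 (adjusted p of 0.0566 to 0.117). Rsad2, viperin, stood at 17.4, 10.6 and 15.2 CPM at day 6, against 90.8, 74.2 and 69.7 CPM at day 4. For Rsad2 the log2 fold change was -2.38 ± 0.43, adjusted p = 0.0156, a call lost without any 1 of day 4 replicates 1 and 3 (adjusted p of 0.0647 to 0.0786). In each of these the highest day 6 library was below the lowest day 4 library. Oasl1, Oas1a, Xaf1, Bst2 and Stat2 changed by -2.0 ± 0.41, -1.57 ± 0.37, -1.37 ± 0.25, -1.38 ± 0.24 and -0.96 ± 0.19. The call of Oasl1 was lost without any 1 of day 4 replicates 1, 2 and 3 (adjusted p of 0.0616 to 0.117). That of Oas1a was kept only without 1 of day 0 replicates 2 and 3 and day 6 replicate 3 and lost without any other 1 library (adjusted p of 0.0616 to 0.169). That of Xaf1 was lost without any 1 of day 4 replicates 1, 2 and 3 (adjusted p of 0.0581 to 0.0722). That of Bst2 was lost without any 1 of day 4 replicates 2 and 3 (adjusted p of 0.0549 to 0.0703). That of Stat2 was lost without any 1 of day 4 replicates 1, 2 and 3 and day 6 replicates 1 and 2 (adjusted p of 0.0546 to 0.0894).

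Outside the list, Slfn4, a schlafen gene of mouse myeloid cells, stood at 576, 201 and 331 CPM at day 6, against 2947, 2246 and 2332 CPM at day 4. For Slfn4 the log2 fold change was -2.88 ± 0.49, adjusted p = 0.0124, a call lost without any 1 of day 4 replicates 1 and 3 (adjusted p of 0.0554 to 0.0623). Apol9b stood at 11.9, 4.28 and 11.3 CPM at day 6, against 67.7, 55.8 and 54.1 CPM at day 4 (log2 fold change -2.67 ± 0.55, adjusted p = 0.0254). Its near-identical copy Apol9a stood at 21.8, 7.26 and 17.7 CPM at day 6, against 91.8, 64.7 and 70.4 CPM at day 4 (log2 fold change -2.32 ± 0.52, adjusted p = 0.0378). The call of Apol9b was lost without any 1 of day 4 replicates 1, 2 and 3 and day 6 replicates 1 and 2 (adjusted p of 0.0541 to 0.114). That of Apol9a was kept only without 1 of day 0 replicates 2 and 3 and day 6 replicate 3 and lost without any other 1 library (adjusted p of 0.0566 to 0.157), and the counting may have shared their reads. Phf11a stood at 7.14, 2.04 and 6.62 CPM at day 6, against 28.5, 25 and 23.7 CPM at day 4. For Phf11a the log2 fold change was -2.22 ± 0.31, adjusted p = 0.00521, a call kept in all 12 fits without 1 library. The RNA helicase Ddx58, which senses viral RNA and was chosen after its values were seen, stood at 62.5, 66.2 and 56.9 CPM at day 6, against 135, 153 and 139 CPM at day 4. For Ddx58 the log2 fold change was -1.19 ± 0.21, adjusted p = 0.0147, a call lost without any 1 of day 4 replicates 1, 2 and 3 (adjusted p of 0.0549 to 0.0654).

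Guanylate-binding and immunity-related GTPases, also induced by interferon, did not pass. They attack the vacuoles of intracellular microbes and respond strongly to interferon gamma. All 12 on the list, grouped after the values were seen, had log2 fold changes between -0.81 and -0.01, and their days overlapped in most cases. Gbp2 stood at 1095, 639.9 and 899 CPM at day 6, against 800.3, 1528 and 906 CPM at day 4 (log2 fold change -0.27 ± 0.29, adjusted p = 0.664), Iigp1 at 1134, 645 and 997 CPM at day 6, against 838, 1407 and 883 CPM at day 4 (log2 fold change -0.17 ± 0.46, adjusted p = 0.881), and Gbp5 had a log2 fold change of -0.14 ± 0.24. Ido1, which degrades tryptophan, stood at 416, 192 and 623 CPM at day 6, against 182, 302 and 192 CPM at day 4 (log2 fold change 0.74 ± 0.40, adjusted p = 0.349). Cxcl9 stood at 322, 167 and 245 CPM at day 6, against 159, 229 and 161 CPM at day 4 (log2 fold change 0.39 ± 0.39, adjusted p = 0.64). Cxcl10, which attracts T cells through the same receptor as Cxcl9, stood at 198, 69.5 and 168 CPM at day 6, against 299, 351 and 323 CPM at day 4, lower in every day 6 library, and missed the threshold (log2 fold change -1.28 ± 0.33, adjusted p = 0.0682). The difference between the antiviral genes and the GTPases was not tested. The count of 11 was 17 without day 0 replicate 3 or day 6 replicate 3 and with a pseudocount of 5, 5 without day 4 replicate 1 or 2, and 4 without day 4 replicate 3. DESeq2 called 20.

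**Figure D4:**
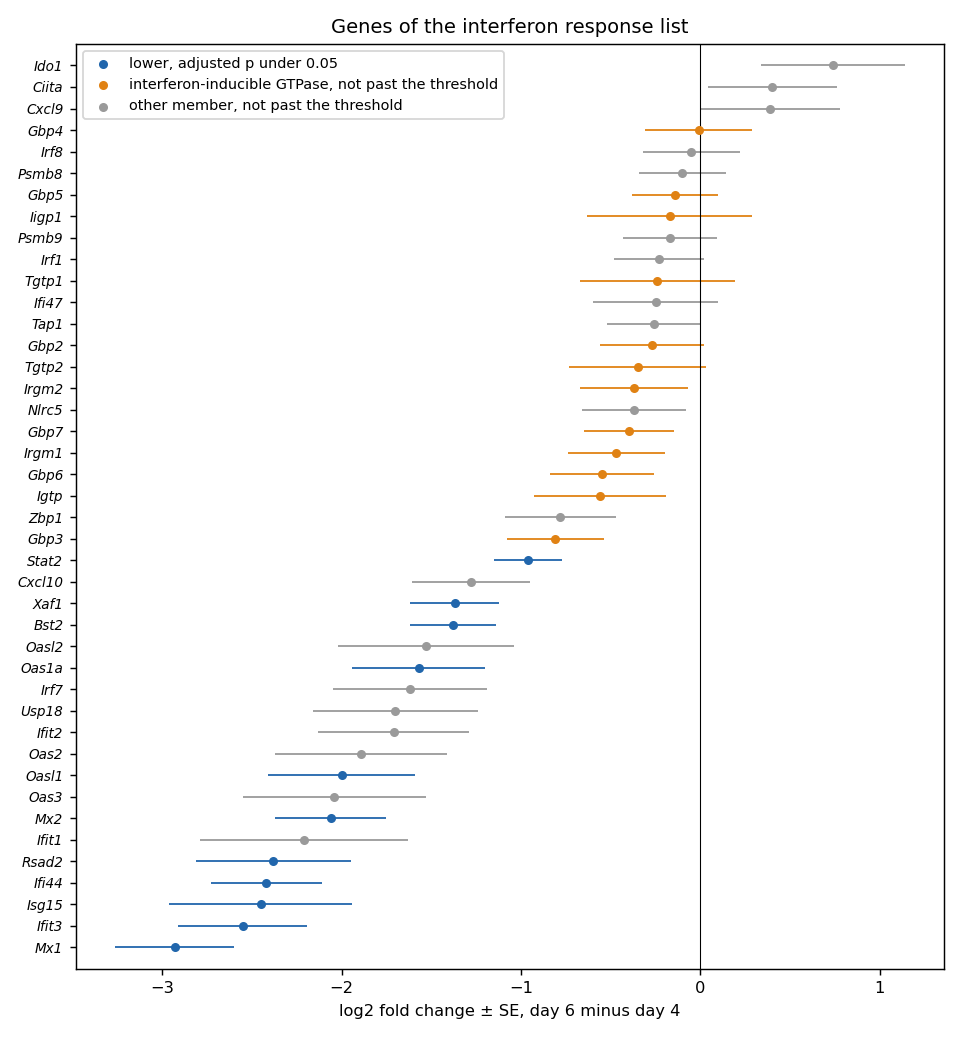
Log2 fold change with its standard error for genes of the interferon response list, day 6 minus day 4, in order of size. Blue genes passed the threshold, and the 12 orange GTPases, which did not, lie between -0.81 and -0.01, while the called gene with the smallest fall, Stat2, is at -0.96.

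The promoter windows of these genes, which run from 250 bases before to 50 after the RefSeq transcription start (GRCm38.p6), were searched on both strands for the letters GAAA, any 2 bases and GAAA again, the core of the interferon-stimulated response element. Matches may overlap one another. Of the 11 called genes 9 had a window and 6 of these held a match. Of the 32 list members not called 22 had a window and 12 held a match, and of the 12 GTPases among them 9 had a window and all 9 held one. Among all tested genes with a window, 461 of 11736 (3.93%) held a match. Stretches around a match are shown for 5 genes that fell and for 3 GTPases that did not pass, since the same letters stand in both. Capitals mark the matches, which read TTTC, 2 bases and TTTC where they lie on the opposite strand, and each sequence is written 5′ to 3′ on the strand of its gene.
Ifit3: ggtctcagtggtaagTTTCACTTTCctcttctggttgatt
Isg15: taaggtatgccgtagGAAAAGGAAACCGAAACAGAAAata
Stat2: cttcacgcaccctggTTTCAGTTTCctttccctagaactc
Oas1a: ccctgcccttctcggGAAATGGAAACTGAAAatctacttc
Bst2: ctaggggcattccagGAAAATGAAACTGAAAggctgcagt
Gbp2: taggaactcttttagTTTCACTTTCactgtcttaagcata
Tgtp1: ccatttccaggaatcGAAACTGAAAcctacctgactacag
Irgm1: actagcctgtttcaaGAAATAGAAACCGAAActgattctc
These stretches lie, with the strand in brackets, for Ifit3 at chr19:34583358-34583397 (+), Isg15 at chr4:156200872-156200911 (-), Stat2 at chr10:128270261-128270300 (+), Oas1a at chr5:120907521-120907560 (-) and Bst2 at chr8:71537578-71537617 (-), and for Gbp2 at chr3:142620589-142620628 (+), Tgtp1 at chr11:48992299-48992338 (-) and Irgm1 at chr11:48871426-48871465 (-). Isg15 held 3 overlapping matches in its window, Ifit3, Oas1a, Bst2 and Irgm1 2 each, and Stat2, Gbp2 and Tgtp1 1 each. A match is a run of letters and not evidence of binding.

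**Figure D5:**
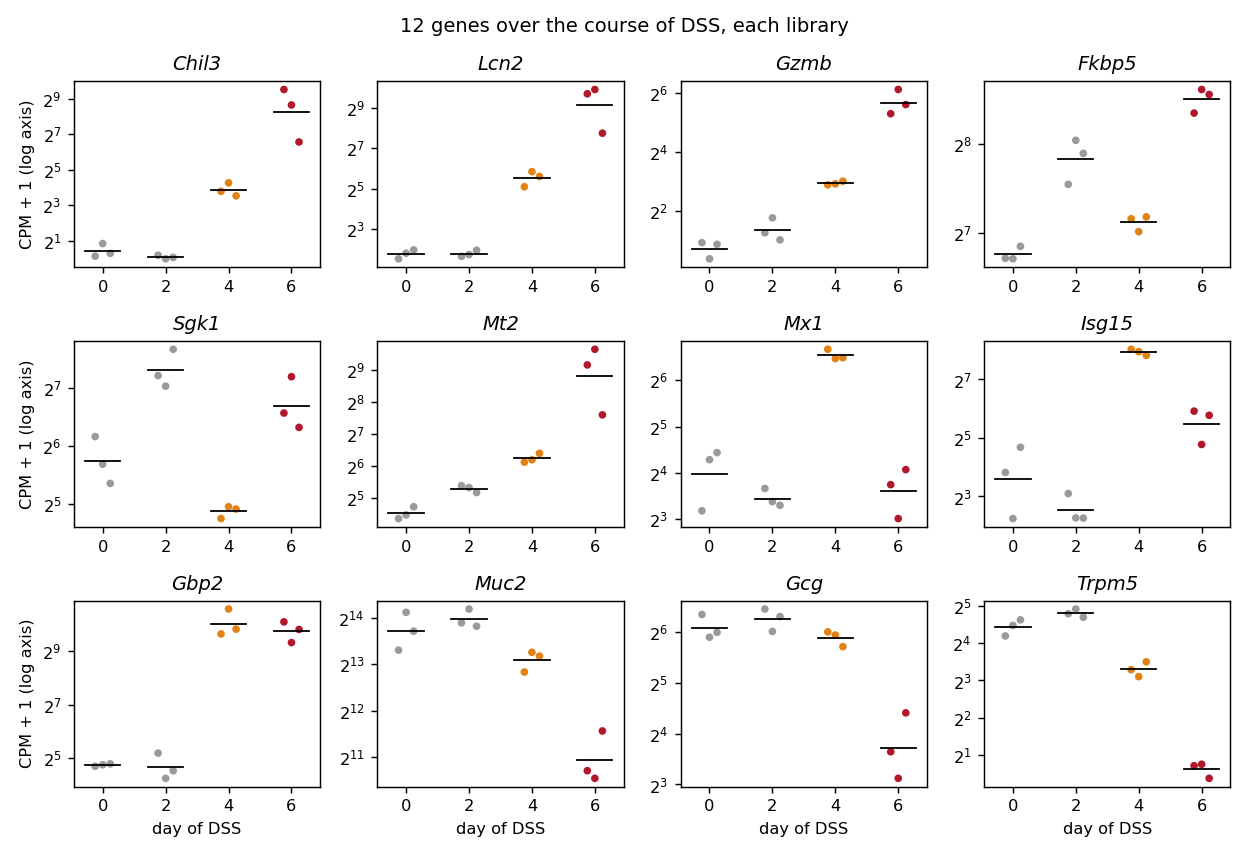
CPM + 1 in each library on a log axis at days 0, 2, 4 and 6 of DSS for 12 genes, with a bar at the mean of the logs; day 6 is red and day 4 orange. Mx1 and Isg15 peak at day 4, Gbp2 stays high at day 6, Fkbp5 and Sgk1 are lower at day 4 than at days 2 and 6, and Muc2, Gcg and Trpm5 are lowest at day 6.

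Some markers of rare sensory and hormone-making cells of the epithelium fell. They were 3 of 11 for tuft cells and 6 of 13 for enteroendocrine cells, against 0.951% of all genes lower. Tuft cells are chemosensory epithelial cells that answer parasites and bacteria with interleukin 25. Trpm5, the cation channel of their taste-like signalling, had the smallest adjusted p in limma of the genes named here, at 0.634, 0.679 and 0.291 CPM at day 6, against 8.78, 7.6 and 10.3 CPM at day 4 (log2 fold change -2.69 ± 0.18, adjusted p = 9.28e-05). Its call was kept in all 12 fits without 1 library. The tuft cell adaptor Sh2d6 stood at 0.512, 1.36 and 0.371 CPM at day 6, against 6.37, 4.96 and 4.99 CPM at day 4 (log2 fold change -1.92 ± 0.21, adjusted p = 0.00238). Rgs13, a regulator of G protein signalling, stood at 0, 0.157 and 0.0529 CPM at day 6, against 2.25, 1.64 and 2.91 CPM at day 4 (log2 fold change -1.6 ± 0.18, adjusted p = 0.00238). These 3 calls were kept in the 12 fits. Day 6 levels were low, and the size of the fall depended on the scale. The fold change of Trpm5 was -4.08 in edgeR, -4.09 in DESeq2 and -1.32 with a pseudocount of 5, that of Sh2d6 was -2.91 in edgeR, -2.92 in DESeq2 and -0.86 with a pseudocount of 5, and that of Rgs13 was -5.01 in edgeR, -5.09 in DESeq2 and -0.52 with a pseudocount of 5. At day 2 Trpm5 averaged 27 CPM, Sh2d6 13.9 CPM and Rgs13 6.14 CPM. Dclk1, often used as a tuft marker but also made by nerve cells, stood at 31.7, 60.8 and 19.6 CPM at day 6, against 22.4, 36.9 and 26.7 CPM at day 4 and did not pass (log2 fold change 0.26 ± 0.33, adjusted p = 0.727). The list's median was -0.12, and its sum, to which Dclk1 contributes, overlapped at 132, 258 and 86.5 CPM at day 6, against 95.0, 130.3 and 109 CPM at day 4. Of the 11 markers 2 had positive fold changes, of up to 0.93. In DESeq2 and with library weights 5 were lower and 1 higher, and in edgeR 4 were lower. Without day 6 replicate 3, 3 were lower and 1 higher.

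Enteroendocrine cells release gut hormones and serotonin. Of 13 of their markers 6 were lower and none higher, with a median of -1.37 and 3 positive fold changes of up to 0.41. The list's sums overlapped, at 303, 500 and 239 CPM at day 6, against 486, 607 and 541 CPM at day 4. The count was 4 without day 4 replicate 1 or 3 and 9 without day 6 replicate 3. Gcg, the precursor of glucagon-like peptides, stood at 11.5, 7.7 and 20.3 CPM at day 6, against 63.3, 60.6 and 51.6 CPM at day 4 (log2 fold change -2.16 ± 0.27, adjusted p = 0.00403). Pyy, peptide YY, a hormone of satiety, stood at 8.53, 6.16 and 14.1 CPM at day 6, against 47.4, 38.5 and 35.4 CPM at day 4 (log2 fold change -2.02 ± 0.30, adjusted p = 0.00643). The groups of both were well separated, and both calls were kept in the 12 fits. Chga, chromogranin A of hormone granules and 1 of the 17 genes called on the 6 libraries alone, stood at 19.8, 18.8 and 20.4 CPM at day 6, against 54.6, 52 and 62.6 CPM at day 4 (log2 fold change -1.47 ± 0.18, adjusted p = 0.00403). Chgb, its relative, stood at 38.7, 33 and 55.6 CPM at day 6, against 124, 114 and 125 CPM at day 4 (log2 fold change -1.52 ± 0.21, adjusted p = 0.00486). Tph1, the rate-limiting enzyme of serotonin synthesis in the gut, changed by -1.52 ± 0.26, a call lost without any 1 of day 4 replicates 1 and 3 (adjusted p of 0.059 to 0.0647). Sct, secretin, changed by -1.37 ± 0.29, a call lost without any 1 of day 2 replicate 3 and day 4 replicates 1, 2 and 3 and day 6 replicates 1 and 2 (adjusted p of 0.0505 to 0.142) and with a pseudocount of 5. On that scale Tph1 was at -0.97 and Sct at -0.63. At day 0 Gcg averaged 67.4 CPM, Pyy 40.7 CPM and Chga 81.7 CPM, and at day 2 they averaged 76.3, 42.3 and 114 CPM.

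Several mucus genes fell. Muc2, the gel-forming mucin of colonic mucus, stood at 1672, 1492 and 3024 CPM at day 6, against 7285, 9773 and 9239 CPM at day 4 (log2 fold change -2.15 ± 0.30, adjusted p = 0.00521). Every day 6 library was well below every day 4 library, and the call was kept in all 12 fits without 1 library. Klk1, tissue kallikrein, a serine protease of goblet cells, stood at 50.3, 27.2 and 88.1 CPM at day 6, against 212, 252 and 219 CPM at day 4. For Klk1 the log2 fold change was -2.17 ± 0.32, adjusted p = 0.00643, a call kept in all 12 fits without 1 library. Muc6, a gel-forming mucin best known from the stomach, stood at 0.902, 1.44 and 0.874 CPM at day 6, against 11, 7.92 and 7.26 CPM at day 4. For Muc6 the log2 fold change was -2.22 ± 0.36, adjusted p = 0.00987, a call lost without day 4 replicate 1 (adjusted p = 0.0532), and it was -1.17 with a pseudocount of 5. Of 2 membrane mucins chosen after their values were seen, Muc1 stood at 6.75, 9.97 and 7.31 CPM at day 6, against 31.9, 27.1 and 28 CPM at day 4 (log2 fold change -1.75 ± 0.28, adjusted p = 0.00867). Muc4 stood at 81.6, 67.6 and 209 CPM at day 6, against 399, 344 and 305 CPM at day 4 (log2 fold change -1.72 ± 0.37, adjusted p = 0.0319). The call of Muc1 was kept in all 12 fits without 1 library. That of Muc4 was kept only without 1 of day 0 replicates 1 and 2 and day 6 replicate 3 and lost without any other 1 library (adjusted p of 0.0504 to 0.136). The membrane mucin Muc13 stood at 843, 494 and 1016 CPM at day 6, against 1584, 1251 and 1493 CPM at day 4 and did not pass (log2 fold change -0.93 ± 0.38, adjusted p = 0.212).

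Of 21 goblet cell markers 3 were lower (Klk1, Muc2 and Sytl2) and none higher, against 0.951% of all genes lower. Their median was -1.04, with 19 negative fold changes. The other 2 markers were higher in every day 6 library, with fold changes of up to 1.08, but did not pass. The list summed to 4886, 3945 and 9150 CPM at day 6, against 17190.4, 17065.1 and 16228.5 CPM at day 4. Sytl2, a vesicle-docking protein, changed by -0.68 ± 0.16, a call kept only without 1 of day 0 replicate 1 and day 6 replicate 3 and lost without any other 1 library (adjusted p of 0.0527 to 0.207). Several members were lower in every day 6 library but did not pass. Zg16, a lectin that holds bacteria away from the epithelium, stood at 714, 649 and 1069 CPM at day 6, against 2567, 1959.6 and 1724 CPM at day 4 (log2 fold change -1.38 ± 0.35, adjusted p = 0.063). Clca1, a secreted protein of mucus, stood at 287, 318 and 609.6 CPM at day 6, against 1820.5, 866 and 865 CPM at day 4 (log2 fold change -1.54 ± 0.45, adjusted p = 0.0949). Tff3, trefoil factor 3, had a log2 fold change of -0.93 ± 0.30. Without day 6 replicate 3, in which goblet genes were highest of the day, 16 were lower and 1 higher. Without day 0 replicate 1, 5 were lower, and without any other 1 library 2 were. In edgeR 2 were lower and 1 higher, and in DESeq2 7 were lower and 2 higher.

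Levels of general epithelial genes stand beside these falls. All 17 tested pan-epithelial genes had negative fold changes, with a median of -0.57, and 2 passed. The count was 9 without day 6 replicate 3, 8 with library weights and 1 without any 1 of the other 11 libraries. The list summed to 10189, 5469 and 16293 CPM at day 6, against 14602, 12141 and 13610.0 CPM at day 4, so day 6 replicate 2 was below and day 6 replicate 3 above all 3 day 4 libraries. Epcam, the epithelial adhesion molecule, stood at 990.2, 523 and 1471 CPM at day 6, against 1378, 1131 and 1281 CPM at day 4 (log2 fold change -0.46 ± 0.30, adjusted p = 0.457). Cldn4, a tight junction protein, stood at 19.2, 18.3 and 34.1 CPM at day 6, against 102, 57.1 and 64.6 CPM at day 4. For Cldn4 the log2 fold change was -1.61 ± 0.25, adjusted p = 0.00791, a call kept in all 12 fits without 1 library. The keratin gene Krt18 changed by -0.99 ± 0.23, a call kept only without day 6 replicate 3 and lost without any other 1 library (adjusted p of 0.0521 to 0.171). None of 29 absorptive colonocyte markers passed in limma (4 with an unadjusted p under 0.05, 1 lower in edgeR and in DESeq2, 5 without day 6 replicate 3), and their median was -0.17. Cldn1, normally scarce in healthy colon, rose, at 5.29, 10.3 and 5.48 CPM at day 6, against 1.98, 1.35 and 1.59 CPM at day 4. For Cldn1 the log2 fold change was 1.55 ± 0.26, adjusted p = 0.0109, a call lost without day 4 replicate 3 (adjusted p = 0.0563), and it was 0.83 with a pseudocount of 5.

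Gsdmc4, of the gasdermin C family of pore-forming proteins of intestinal epithelium, stood at 38.5, 47.1 and 167 CPM at day 6, against 412, 432 and 394 CPM at day 4. For Gsdmc4 the log2 fold change was -2.6 ± 0.52, adjusted p = 0.023, a call lost without any 1 of day 4 replicates 1, 2 and 3 and day 6 replicates 1 and 2 (adjusted p of 0.0668 to 0.0969). Its neighbours on chromosome 15, chosen after their values were seen, did not pass. Gsdmc2 stood at 31.9, 26.1 and 118 CPM at day 6, against 165, 199 and 191 CPM at day 4 (log2 fold change -1.97 ± 0.54, adjusted p = 0.08) and Gsdmc3 had a log2 fold change of -1.37 ± 0.57. These are close copies and reads may be shared. Gsdmc4 had averaged 1445 CPM at day 0 and 724 CPM at day 2. Syt8, a synaptotagmin, stood at 2, 0.705 and 1.14 CPM at day 6, against 6.8, 7.79 and 13.4 CPM at day 4. For Syt8 the log2 fold change was -2.17 ± 0.26, adjusted p = 0.0037, a call kept in all 12 fits without 1 library, and it was -1.17 with a pseudocount of 5. Sult1a1, a sulfotransferase that inactivates phenols, was the 1 called gene of 36 in xenobiotic metabolism and rose, at 25.9, 33.2 and 35.2 CPM at day 6, against 7.41, 4.7 and 6.37 CPM at day 4 (log2 fold change 2.19 ± 0.24, adjusted p = 0.00238). Its level at day 2 had been 275 CPM, far above both days compared.

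Proliferation genes had negative fold changes in all 30 tested members, with a median of -1.02, and none passed in limma (24 with an unadjusted p under 0.05) or edgeR (1 lower in DESeq2). Without day 6 replicate 3, 15 were lower. The list summed to 1876, 598 and 1781 CPM at day 6, against 2835, 2041 and 2535 CPM at day 4, and in 20 members every day 6 library was below every day 4 library, against 12.5% of all genes. Mki67, the marker of cycling cells, stood at 188, 53.4 and 164 CPM at day 6, against 326, 186 and 238 CPM at day 4 (log2 fold change -1.04 ± 0.45, adjusted p = 0.242). The next 3 lists had no called member in limma, edgeR or DESeq2, and 0, 0 and 1 member with an unadjusted limma p under 0.05. All 27 cytoplasmic ribosomal proteins had log2 fold changes within -0.21 and 0.14, 24 respiratory chain genes within -0.33 and 0.28, and 25 genes of the unfolded protein response within -0.51 and 0.37. Cholesterol synthesis genes were negative in 23 of 24, with a median of -0.42 and none called in limma (12 with an unadjusted p under 0.05) or edgeR, 3 lower in DESeq2 and 11 lower without day 6 replicate 3.

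Further large rises belonged to lists with few called members or to none. Gdpd2, a membrane phosphodiesterase, stood at 31.6, 64 and 21.9 CPM at day 6, against 2.65, 3.54 and 3.64 CPM at day 4. For Gdpd2 the log2 fold change was 3.1 ± 0.35, adjusted p = 0.00238, a call kept in all 12 fits without 1 library. Scara5, a ferritin receptor of stromal cells, stood at 85.2, 160.4 and 38.4 CPM at day 6, against 10.7, 13 and 11.3 CPM at day 4. For Scara5 the log2 fold change was 2.69 ± 0.44, adjusted p = 0.0106, a call lost without any 1 of day 4 replicates 1 and 3 (adjusted p of 0.0503 to 0.0517). Ctla2b, related to the propeptides of cysteine proteases, stood at 32.6, 49.9 and 8.39 CPM at day 6, against 2.14, 3.73 and 2.71 CPM at day 4. For Ctla2b the log2 fold change was 2.73 ± 0.48, adjusted p = 0.0136, a call lost without any 1 of day 4 replicates 1 and 3 and day 6 replicate 1 (adjusted p of 0.0541 to 0.0684). In each, day 6 replicate 2 was the highest library and day 6 replicate 3 the lowest of the day. Ptx3, a soluble pattern receptor, was the 1 called gene of 18 in NF-kB and TNF feedback, at 71.9, 77.5 and 22.8 CPM at day 6, against 10.5, 9.14 and 14.2 CPM at day 4. For Ptx3 the log2 fold change was 2.09 ± 0.38, adjusted p = 0.0156, a call lost without any 1 of day 4 replicates 1 and 2 and day 6 replicate 1 (adjusted p of 0.0575 to 0.0735). Of 21 prostaglandin and eicosanoid genes 2 rose: Ptges, which makes prostaglandin E2, by 1.35 ± 0.28, and Alox5ap, which leukotriene synthesis needs, by 1.21 ± 0.23. The call of Ptges was lost without any 1 of day 4 replicates 1, 2 and 3 and day 6 replicates 1 and 2 (adjusted p of 0.0717 to 0.13). That of Alox5ap was lost without any 1 of day 4 replicates 1 and 3 and day 6 replicate 1 (adjusted p of 0.0688 to 0.107). Of 15 dendritic cell markers Flt3, a growth factor receptor, alone rose, by 0.98 ± 0.22, a call kept only without 1 of day 0 replicates 1 and 2 and day 6 replicate 3 and lost without any other 1 library (adjusted p of 0.063 to 0.149), and by 0.54 with a pseudocount of 5. It was not called by edgeR, and DESeq2 called 8 of the list.

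The genes that varied most between the 3 day 6 libraries, among those with a mean of at least 20 CPM, were epithelial in large part. Agr2, a goblet cell chaperone for mucins, stood at 342, 73.7 and 993 CPM at day 6, against 430.1, 525 and 494 CPM at day 4. Cldn2, a leaky claudin, stood at 143, 10.2 and 181 CPM at day 6, against 104, 79.4 and 136 CPM at day 4, and Gpx2, the epithelial glutathione peroxidase, at 771, 66.3 and 540.1 CPM at day 6, against 1012, 698 and 942 CPM at day 4. Each was far lower in day 6 replicate 2 than in the other 5 libraries. Cldn15, Ppp1r1b, Gvin-ps1 and the antimicrobial lectin Reg3g were likewise lowest of the 6 in that library, with Reg3g at 1710, 152 and 945 CPM at day 6, against 1583, 1255 and 3284 CPM at day 4 (log2 fold change -1.57 ± 1.05, adjusted p = 0.465). Ngp, lowest in day 6 replicate 3, was the exception. None of these 8 but Ngp passed the test.

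Of the 35 panel genes followed whatever their result, 34 were tested, and 3 rose (Lcn2, Saa3 and S100a8) and 1 fell (Muc2). The counts were 11 and 4 without day 6 replicate 3, and without any 1 of day 4 replicates 2 and 3 and day 6 replicate 1 only 1 rose. DESeq2 gave 8 and 3. Those not described above did not pass, with these log2 fold changes: Arg1 at 1.39 ± 0.50, Aqp8 at -0.93 ± 0.52, Car1 at 0.77 ± 0.41, Slc26a3 at 0.74 ± 0.29, Krt20 at -0.03 ± 0.31, Vil1 at -0.51 ± 0.27 and Lgr5 at -0.46 ± 0.32. Mmp10 stood at 0.93 ± 0.29, Timp1 at 0.51 ± 0.26, Nos2 at 0.05 ± 0.50, Ptgs2 at 0.48 ± 0.33, Il11 at 0.38 ± 0.38, Acta2 at 0.09 ± 0.31 and Reg3b at -0.93 ± 1.11. Il17a stayed under the filter on low values, at 0.829, 0 and 0.424 CPM at day 6, against 0.321, 0.386 and 0.156 CPM at day 4.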

How the data were processed

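Bulk RNA sequencing of mid-colon was deposited as 1 table of CPM for 12 libraries, 3 each at days 0, 2, 4 and 6. Per the submitters' processing notes, HISAT2 2.2.1, featureCounts 2.0.1 and the mouse build mm10 were used. The sources used here give neither annotation nor strand setting. CPM values as deposited by the authors were whole multiples of 1 read (within 0.1), and whole reads were recovered for count tests. Genes reaching 1 CPM in 3 or more libraries entered limma 3.58.1 in R 4.3.3 on log2(CPM + 1), with trend and robust moderation, 1 fit over 12 libraries and the contrast day 6 minus day 4 (two-sided, Benjamini-Hochberg adjusted p under 0.05). Fold changes on this scale understate changes of low genes. Errors of fold changes are standard errors. CPM scale with the library total and not with gene length.

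Alternatives were edgeR 4.0.16 quasi-likelihood, DESeq2 1.42.0, other pseudocounts, filters, scalings, library weights, a replicate block, the 6 libraries of days 4 and 6 alone, and each library left out. The edgeR fit on 6 libraries was added after seeing the data. The procedure was tested on simulated data. Members and gene lists were chosen with earlier results of these data known. The text names by rule the 15 largest rises and falls (no overlap, mean of at least 5 CPM in the higher day), up to 4 called members of each list and 2 the other way, a 35-gene panel, and the 8 genes most variable at day 6. Other genes named with values were chosen after their values were seen. Lists were described by counts and medians and were not tested. Coordinates are from GENCODE M21 (GRCm38), matched by symbol for 24732 of 25904 genes, and promoter windows from RefSeq (GRCm38.p6). Some members of the lists are counted but not reported here one by one.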

Additional observations from a re-analysis of the deposited data

How the results depend on the processing

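No called gene changed sign under any setting. The counts of 289 higher and 145 lower stayed within 1.5 times under both other pseudocounts, no filter, median-of-ratios scaling, quantile normalization, plain moderation, edgeR on 12 libraries, and the replicate block (305 and 161). With a mean of at least 5 CPM 144 were higher. The 6 libraries alone gave 0 and 0 in limma and 5 and 12 in edgeR, where the edgeR fit was added after seeing the data. Library weights, which ranged between 0.139 for day 6 replicate 2 and 4.7, gave 2482 and 1695, and DESeq2 gave 839 and 505. Leaving out 1 library gave 73 to 1470 higher and 42 to 780 lower.

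The median SD was 0.302, 0.316 and 0.308 at day 6 and 0.131, 0.159 and 0.147 at day 4 under the mean filter, median-of-ratios scaling and quantile normalization. Ccl2 was reversed under library weights, at 0.37 (limma, adjusted p = 0.0472). The causes of these shifts were not tested.

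For the 119 named genes that were tested, the call under other settings was unchanged in 1296 cases, lost in 203 and gained in 29. With 1 library left out these numbers were 1187, 228 and 13. Direction was compared only where a gene was called. The unchanged cases therefore include uncalled genes that changed sign, as Ifng did (-0.72 to 0.7 with 1 library left out). Of the 116 called genes described, 18 lost the call with no filter, 13 with the mean filter, 7 with a pseudocount of 5, 3 with one of 0.5 and 3 with the replicate block (Ccl7, Ndrg1 and Sytl2). Same-numbered libraries of both days correlated at 0.207, 0.636 and 0.092 in their deviations from the day means. Day 6 replicates 1 and 2 correlated best with the day 4 library of their number, and day 6 replicate 3 with day 4 replicate 1 (0.536). With 3 libraries a day these values depend on one another and cannot decide whether the numbers pair the samples. The numbers were not taken to pair them. At 3 libraries a day, genes of few reads (1 read is 0.0244 to 0.0322 CPM) are limited by depth.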
